A study of Mus musculus with 10 samples.

Results

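The phagocyte NADPH oxidase was followed through 5 of its genes, Cybb, Cyba, Ncf1, Ncf4 and Rac2, taken from a list of subunit genes and found by symbol among the 32285 genes of the count table. The RNA came from blood of C57/BL6J mice, labelled as leukocyte, and each of 10 libraries pooled 3 mice. The groups were SD, a sleep deprivation, after 6, 12, 24 and 48 h, SASD, a sleep restriction method described earlier, after 6, 12, 24, 48 and 120 h, and Con, an undisturbed control at 0 h. No genotype, transgene or drug beyond the pentobarbital used for anaesthesia was named, and how SD and SASD were carried out is not given in the sources used here. Each group was a single library, so ratios between libraries had no replicate check. Con was the only control and had no counterpart at the later times. Hours in SD or SASD and the time of collection, time of day included, therefore cannot be told apart.

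The oxidase of neutrophils, monocytes and macrophages passes electrons from NADPH to oxygen and makes superoxide, which feeds the killing of engulfed microbes. Its membrane core is a flavocytochrome of Cybb and Cyba. The organiser Ncf1, the phosphoinositide-binding Ncf4 and the small GTPase Rac2 wait in the cytosol and join the core when the cell is stimulated. Loss of the core or of Ncf1 causes chronic granulomatous disease in people.

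All 5 genes were protein coding (positions from GENCODE M21 on GRCm38, the mm10 assembly). Cybb (ENSMUSG00000015340) lay on chromosome X at 9435252 to 9487771, Cyba (ENSMUSG00000006519) on chromosome 8 at 122424776 to 122432930 and Ncf1 (ENSMUSG00000015950) on chromosome 5 at 134220053 to 134229625, all on the minus strand. Ncf4 (ENSMUSG00000071715) lay on the plus strand of chromosome 15 at 78244801 to 78262580, and Rac2 (ENSMUSG00000033220) on the minus strand of the same chromosome at 78559167 to 78572783. The exons of Ncf1 shared 408 bases with Gtf2ird2 on the opposite strand, and counting used no strand, so the Ncf1 counts were less certain than the others. Exons of the other 4 overlapped no gene of the table.

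RefSeq start regions (GRCm38.p6, 250 bases before the start and 50 after it, 5′ to 3′ on the strand of the gene) were at hand for 3 of the 5 genes. These 3 are shown because they were at hand, and a link between their letters and the levels was not tested. Capitals mark matches on either strand to 4 motifs. The PU.1-type motif was GAGGAA, the CCAAT box was searched by its own letters and the Sp1-type motif was GGGCGG. The fourth motif was that of interferon regulatory factors (IRF-type), a pair of GAAA blocks on 1 strand with 2 free bases between them. No marked match overlapped another. The regions were chrX:9469275-9469574 for Cybb, chr5:134229576-134229875 for Ncf1 and chr8:122432891-122433190 for Cyba, each on the minus strand. The Cybb region lay inside the GENCODE gene, which runs to 9487771, so its RefSeq start differed from the outer GENCODE end. The regions of Ncf1 and Cyba spanned the ends of their GENCODE genes.
Cybb: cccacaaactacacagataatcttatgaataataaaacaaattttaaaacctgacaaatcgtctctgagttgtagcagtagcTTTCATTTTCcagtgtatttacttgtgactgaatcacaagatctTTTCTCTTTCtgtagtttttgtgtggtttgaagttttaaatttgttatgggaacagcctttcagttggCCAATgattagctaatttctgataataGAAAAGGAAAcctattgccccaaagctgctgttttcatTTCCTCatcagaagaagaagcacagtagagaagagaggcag
Ncf1: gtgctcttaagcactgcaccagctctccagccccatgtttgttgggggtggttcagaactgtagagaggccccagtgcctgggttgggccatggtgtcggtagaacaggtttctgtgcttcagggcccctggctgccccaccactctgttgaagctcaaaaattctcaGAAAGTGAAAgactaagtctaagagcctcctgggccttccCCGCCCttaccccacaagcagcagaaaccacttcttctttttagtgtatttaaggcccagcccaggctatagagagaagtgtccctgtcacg
Cyba: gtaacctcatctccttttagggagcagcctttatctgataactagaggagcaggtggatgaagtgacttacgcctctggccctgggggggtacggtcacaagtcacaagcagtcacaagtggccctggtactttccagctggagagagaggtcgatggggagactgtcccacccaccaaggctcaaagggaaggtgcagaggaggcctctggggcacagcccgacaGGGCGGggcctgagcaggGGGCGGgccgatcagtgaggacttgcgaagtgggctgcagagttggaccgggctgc

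The Cybb region held 3 IRF-type matches, whose first bases lay 168, 124 and 29 bases before the start. It also held a CCAAT box 56 bases before the start and a PU.1-type match 9 bases after it. The Ncf1 region held 1 IRF-type match 82 bases before the start and 1 Sp1-type match at 42. The Cyba region held Sp1-type matches at 24 and 6 bases before the start. Among 32851 such regions, 3.44% held an IRF-type match, 28.3% a PU.1-type match, 37.4% a CCAAT box and 35.7% an Sp1-type match. These are letter matches in a fixed window and not measured binding.

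Total counts per library ran from 7825120 (SASD 24 h) to 27501393 (Con). The libraries fell into 2 sets by haemoglobin genes, a mark of red cell RNA. These took 0.316% of counts in SD 48 h, 0.275% in SASD 48 h and 0.727% in Con, against 3.57% to 6.96% in the other 7. At each shared time SD and SASD lay in the same set, and Con shared its set with the 48 h libraries alone. All 5 genes were well covered, with 595 to 19580 counts per library. Levels below are CPM (counts brought to a common library size by TMM factors, which even out composition) unless a length-scaled unit is named. In such bulk RNA, fewer cells of a type and less RNA per cell cannot be told apart. Intervals around ratios are exact conditional binomial (Clopper-Pearson) 95% intervals and cover counting error only.

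Cybb, the catalytic subunit, moved over the widest range of the 5. It stood at 347, 314.5, 558 and 564 CPM in SD 6, 12, 24 and 48 h, at 413.5, 281, 447.5, 685 and 542 CPM in SASD 6, 12, 24, 48 and 120 h, and at 344.5 CPM in Con. Both methods had their lowest Cybb library at 12 h and higher ones from 24 h on, and the SD and SASD ranges overlapped. The span from SASD 12 h to SASD 48 h was 2.44-fold, where the median span of 9618 well-counted genes (mean count 100 or more) was 1.58-fold. SD lay below SASD at 6 h (ratio 0.839, 0.802 to 0.876) and at 48 h (0.823, 0.802 to 0.844). It lay above SASD at 12 h (1.12, 1.06 to 1.18) and 24 h (1.25, 1.19 to 1.30).

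Cyba, the stabilising partner of Cybb, is also used by other oxidases of the family. Its levels were 178, 206, 211.5 and 252.5 CPM in SD 6, 12, 24 and 48 h, then 182.5, 171, 163, 195.5 and 227 CPM in SASD 6, 12, 24, 48 and 120 h, and 164 CPM in Con. In SD each later library was higher than the one before, and in SASD the lowest was at 24 h. SD over SASD was 0.974 (0.913 to 1.04) at 6 h, 1.21 (1.13 to 1.29) at 12 h, 1.30 (1.21 to 1.40) at 24 h and 1.29 (1.24 to 1.35) at 48 h. At 48 h Cyba was the higher in SD and Cybb the lower.

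Ncf1, the organiser that docks onto Cyba after phosphorylation, was highest in SD 24 h. It stood at 199.8, 218, 372 and 296 CPM in SD 6, 12, 24 and 48 h, at 213, 194.5, 206, 305 and 234 CPM in SASD 6, 12, 24, 48 and 120 h, and at 236 CPM in Con. The 24 h pair was apart, with an SD over SASD ratio of 1.80 (1.70 to 1.92). The ratio was 0.937 (0.882 to 0.995) at 6 h, 1.12 (1.05 to 1.19) at 12 h and 0.969 (0.934 to 1.005) at 48 h. Ncf1 was high in SASD 48 h as well, a library that also held the most Cybb.

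Ncf4, which binds a phosphoinositide of the phagosome membrane, had the largest ratio of the 5 at a single time. Its levels were 113, 125, 181 and 162 CPM in SD 6, 12, 24 and 48 h, 105, 103, 92.3, 134 and 132 CPM in SASD 6, 12, 24, 48 and 120 h, and 122 CPM in Con. SD was above SASD at all 4 times, by 1.07 (0.99 to 1.17), 1.22 (1.12 to 1.33), 1.96 (1.79 to 2.15) and 1.21 (1.15 to 1.28). At 24 h Ncf4 was at its highest in SD and at its lowest in SASD.

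Rac2, a small GTPase largely limited to blood cells, was nearly level under SASD with TMM scaling. It stood at 617, 734, 798 and 858 CPM in SD 6, 12, 24 and 48 h, at 603, 605, 588, 601 and 611 CPM in SASD 6, 12, 24, 48 and 120 h, and at 581 CPM in Con. All 4 SD libraries were above all 5 SASD libraries, which held for 1 of the 5 genes and for 1.12% of 12032 genes (mean count 25 or more). SD over SASD was 1.02 (0.99 to 1.06) at 6 h, 1.21 (1.17 to 1.26) at 12 h, 1.36 (1.31 to 1.41) at 24 h and 1.43 (1.39 to 1.46) at 48 h. With total counts in place of TMM the SASD libraries ran from 484.5 CPM at 24 h to 692 CPM at 48 h and the groups overlapped, 3 of the 4 SD libraries being above the highest SASD library.

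**Figure D1:**
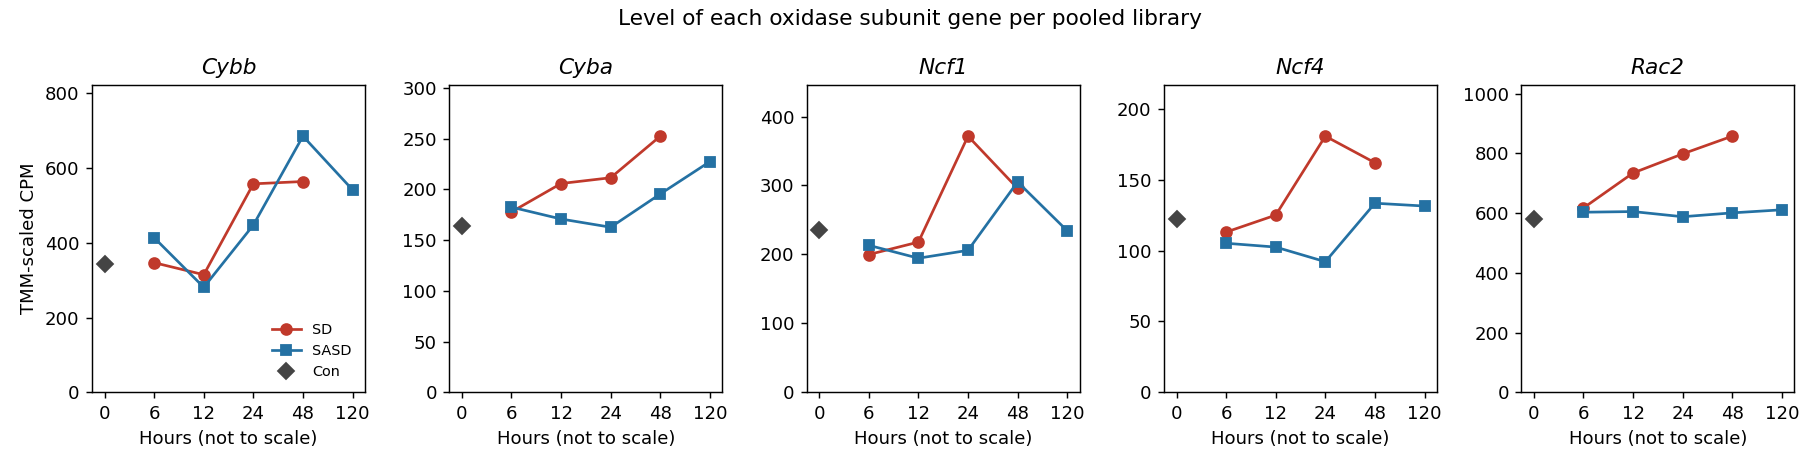
TMM-scaled CPM of each gene (vertical axes from 0) against hours (not to scale) in the single pooled library of each group, SD as circles, SASD as squares and Con as a diamond. Rac2 in SASD stays between 588 and 611 CPM while SD 48 h reaches 858, and Cybb peaks at 685 in SASD 48 h.

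Most steps in the order of levels were within counting error of the next. Of the 9 neighbouring pairs in each gene's order, the interval of the ratio held 1 for 3 pairs in Cybb, 5 in Cyba, 6 in Ncf1, 5 in Ncf4 and 6 in Rac2. In Rac2 these 6 pairs were a run from SD 6 h down to Con through all 5 SASD libraries. In Cybb they were SD 48 h with SD 24 h, SD 24 h with SASD 120 h, and SD 6 h with Con.

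The comparison of SD with SASD asked whether the subunits differed steadily between the methods over the 4 shared times. In edgeR's quasi-likelihood fit with time as a block, the log2 ratio of SD over SASD was 0.41 ± 0.15 for Ncf4 (SE over 4 times), 0.32 ± 0.13 for Rac2, 0.25 ± 0.11 for Cyba, 0.22 ± 0.17 for Ncf1 and -0.01 ± 0.14 for Cybb. The edgeR adjusted p was 0.549 for Ncf4, 0.580 for Rac2, 0.617 for Cyba, 0.787 for Ncf1 and 0.988 for Cybb. None of the 5 (0) passed, where edgeR called 0 of 13370 genes, or 0.0%. DESeq2 and limma-voom also called 0 of the 5, where they called 1.26% and 0.0% of genes. At an unadjusted p under 0.05 edgeR listed 2 of the 5, Ncf4 and Rac2, beside 8.09% of all genes tested. The median log2 ratio was 0.25 over the 5 genes and -0.00 over all genes. The Ncf1 value rested on 24 h: without that time it was 0.01, and that of Ncf4 was 0.22.

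SD was above SASD at all 4 times for Ncf4 and Rac2, 2 of 5, and for 8.89% of all genes. None of the 5 (0) reached 2-fold at any time with TMM. Of all genes, 0.104%, 2.8%, 3.57% and 4.13% were 2-fold or more higher in SD at 6, 12, 24 and 48 h, and 0.91%, 0.0974%, 3.39% and 1.64% as much lower. Total-count scaling in place of TMM moved the median log2 ratio of all genes by 0.22 at 24 h and by -0.12 at 48 h, which left the sign of each of the 5 genes as it was at those times but took Ncf1 (2.10, 1.97 to 2.23) and Ncf4 (2.28, 2.08 to 2.50) past 2-fold at 24 h.

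**Figure D2:**
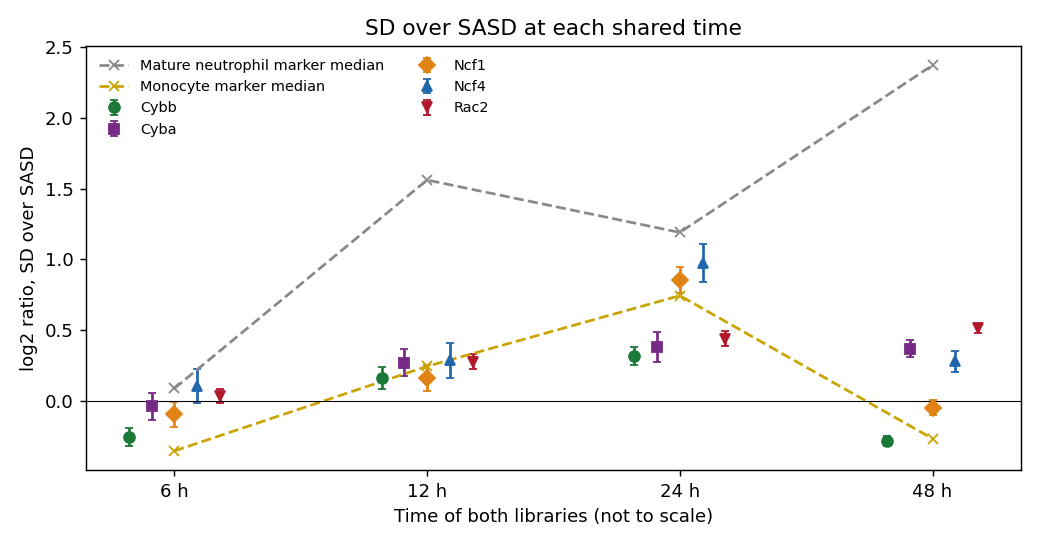
The log2 ratio of SD over SASD (vertical axis) at each shared time for the 5 genes, with 95% counting intervals as bars, and dashed lines for the median of the mature neutrophil and monocyte marker genes. The neutrophil line reaches 2.37 at 48 h, far above all 5 genes. The monocyte line is below 0 at 6 and 48 h, as are the points of Cybb and Ncf1, the Ncf1 bar at 48 h crossing 0.

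Ratios between the subunit genes were compared within libraries, where library scaling cancels. There, the log2 of Cybb over Ncf4 was lower in SD than in SASD by 0.36, 0.12, 0.65 and 0.56 at 6, 12, 24 and 48 h. The mean SD minus SASD difference was -0.42 ± 0.24 (standard deviation of the 4 differences, n = 4). For Cybb over Rac2 it was -0.33 ± 0.32, for Cybb over Cyba -0.26 ± 0.27 and for Cybb over Ncf1 -0.23 ± 0.22 (n = 4 each). These 4 differences were below 0 at all 4 times, the smallest being that of Cybb over Ncf1 at 12 h (-0.000223). The 4 pairs share Cybb and so are not separate evidence. The exact two-sided sign-flip permutation test gave p = 0.125 for each, the smallest value that 4 pairs allow, and 0.208 after adjustment over the 10 gene pairs compared. For Ncf1 over Ncf4 the difference was -0.19 ± 0.10 and for Cyba over Rac2 -0.07 ± 0.06, also below 0 at all 4 times with the same p-values. The 10 pairs share genes with one another. How often other gene pairs keep 1 sign over the 4 times was not counted, so these signs are a description only.

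Levels of different genes were set side by side per exon length. This length counted every base covered by any annotated exon of a gene, which need not be the length of the transcripts present. As a share of the summed counts per exon length of the 5 genes, Rac2 took 35.1% ± 2.9 and Cyba 30.9% ± 2.0, against 12.6% ± 2.7 for Cybb, 11.04% ± 1.32 for Ncf1 and 10.3% ± 0.9 for Ncf4 (standard deviation over the 10 libraries). The share of Cybb was 11.1%, 8.87%, 12.8% and 12.5% in SD 6, 12, 24 and 48 h, 12.9%, 9.45%, 14.7%, 18.2% and 14.6% in SASD 6, 12, 24, 48 and 120 h, and 11.2% in Con. The ratio of Cybb over Cyba per exon length was 0.273 to 0.472 in the SD libraries, 0.294 to 0.627 in the SASD libraries and 0.376 in Con. Per coding length the mean share of Rac2 was larger (55.4%) and that of Cyba smaller (16.4%). The order of the top 2 held for these means but not the size of the gap. In SASD 48 h, Cybb (18.6%) was above Cyba (15.7%) per coding length. In TPM, a level per exon length, Rac2 ranked between 137 and 218 among all genes and Ncf4 between 491 and 1060.

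**Figure D3:**
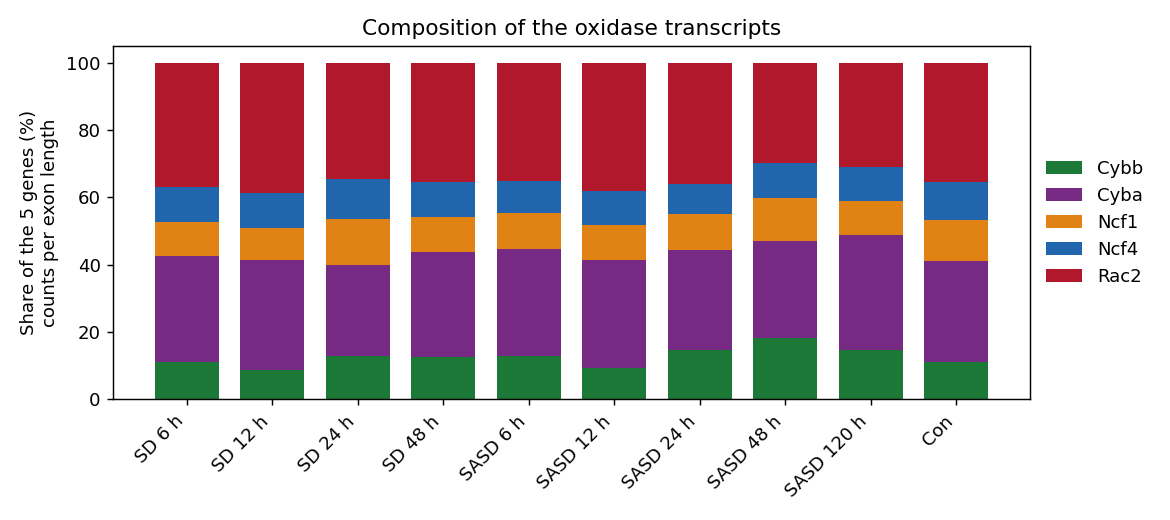
Share of each gene in the summed counts per exon length of the 5 genes (stacked bars, in percent) in the 4 SD, 5 SASD and 1 Con libraries. Rac2 and Cyba fill most of every bar, and the Cybb part is widest in SASD 48 h at 18.2%.

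The slope over hours of SD was fitted on Con and the 4 SD libraries, in log2 units per doubling of (1 + hours/6). It was 0.27 ± 0.10 for Cybb (SE, 5 libraries), 0.20 ± 0.05 for Cyba, 0.19 ± 0.11 for Ncf1, 0.19 ± 0.08 for Ncf4 and 0.19 ± 0.07 for Rac2. All 5 slopes were above 0, as were 46.3% of all slopes. The edgeR adjusted p was 0.298 for Cyba, 0.410 for Rac2, 0.426 for Cybb, 0.480 for Ncf4 and 0.599 for Ncf1. EdgeR called 0 of the 5 and 0.124% of 14562 genes, and listed 3 of the 5, Cybb, Cyba and Rac2, at an unadjusted p under 0.05 beside 10.4% of genes. DESeq2 called 2, Cyba (adjusted p = 0.00123) and Rac2 (adjusted p = 0.00111), where it called 3.13% of genes. Limma-voom called 0 of the 5 beside 0.474% of genes. With a term for the haemoglobin-poor libraries edgeR called Cyba (slope 0.20 ± 0.05, adjusted p = 0.0478) beside 5.47% of genes.

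The SASD trend, on Con and the 5 SASD libraries, had slopes of 0.21 ± 0.09 for Cybb (SE, 6 libraries), 0.09 ± 0.05 for Cyba, 0.05 ± 0.07 for Ncf1, 0.05 ± 0.06 for Ncf4 and 0.01 ± 0.05 for Rac2. EdgeR called 0 of the 5 and 0.0% of 14602 genes, the adjusted p being 1 for each, and listed 0 of the 5 at an unadjusted p under 0.05 beside 3.03% of genes. DESeq2 and limma-voom called 0 of the 5, each beside 0.0% of genes.

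The difference of the trends, SD slope minus SASD slope, was tested over 9 libraries with a shared Con. It was 0.19 ± 0.07 for Ncf4, 0.17 ± 0.05 for Rac2, 0.13 ± 0.04 for Cyba, 0.11 ± 0.08 for Ncf1 and -0.01 ± 0.09 for Cybb (SE). The edgeR adjusted p was 0.317 for Rac2, 0.430 for Cyba, 0.452 for Ncf4, 0.895 for Ncf1 and 0.987 for Cybb. EdgeR called 0 of the 5 and 0.41% of 14138 genes, and listed 3 of the 5 (Cyba, Ncf4 and Rac2) at an unadjusted p under 0.05 beside 7.58%. DESeq2 called Rac2 (adjusted p = 7.2e-06) beside 1.92% of genes, and limma-voom called 0 of the 5 beside 0.721%.

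**Figure D4:**
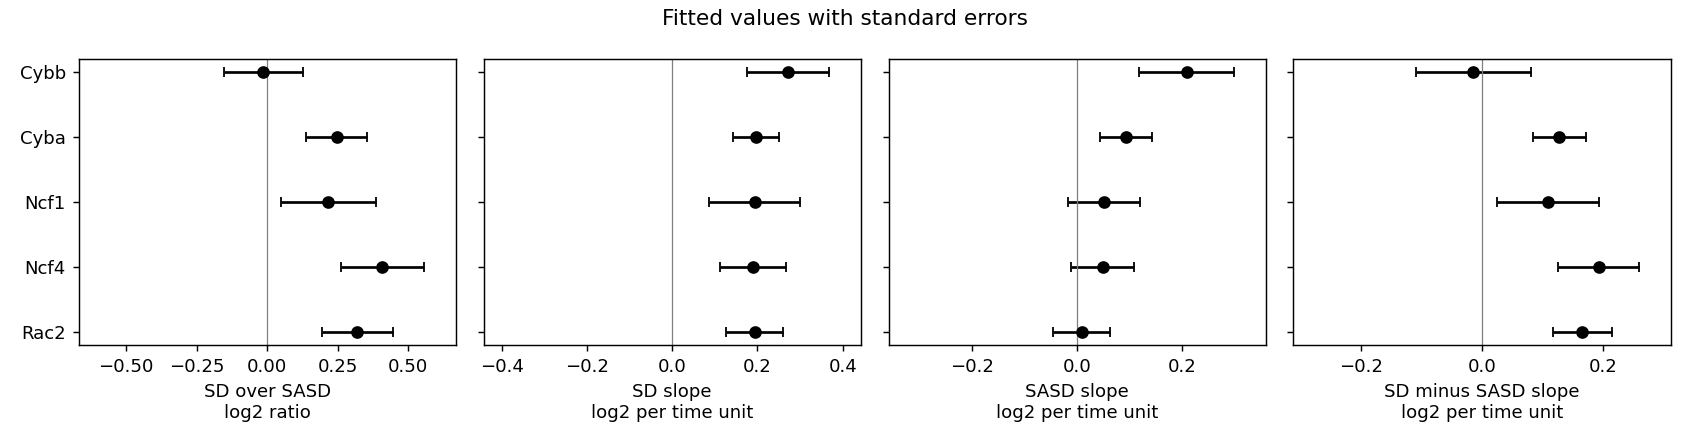
Fitted log2 values with their standard errors for the 5 genes in the 4 edgeR fits (horizontal axes), the slopes being per doubling of (1 + hours/6). Cybb lies at 0 in the first and last panels and is the highest in the SD and SASD slopes, and Rac2 is close to 0 in the SASD slopes.

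Against Con the same library served as the denominator throughout, so these ratios are not independent. All 5 genes were above Con in SD 24 h (ratios 1.29 to 1.62), SD 48 h (1.25 to 1.64) and SASD 48 h (1.03 to 1.99), where 48.2%, 47.7% and 46.9% of all genes lay above Con. In SD 6 and 12 h 3 of the 5 lay above it in each, beside 47.9% and 48.6% of genes. In SASD 6, 12, 24 and 120 h the numbers were 3, 2, 2 and 4, beside 48.1%, 46.5%, 46.4% and 51.6%. Cybb in SASD 48 h, at 1.99 (1.94 to 2.04), was the highest of the 45 ratios, and Ncf4 in SASD 24 h, at 0.754 (0.690 to 0.822), the lowest. The 48 h libraries and Con lie in the same haemoglobin set. With total counts in place of TMM, the 5 genes still lay above Con in these 3 libraries. In SD 6 h, SASD 6 h, SASD 12 h and SASD 24 h, however, the number above Con became 0 in each, and in SD 12 h it became 2, Ncf4 standing at 0.842.

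The labelled leukocytes were checked against marker lists. Summed mature neutrophil markers (16 of 16 with counts in every library) stood at 3528, 6749, 8262 and 12490 CPM in SD 6, 12, 24 and 48 h, at 2381 to 3299 CPM in the SASD libraries and at 2520 CPM in Con. Summed monocyte markers (13 of 13) stood at 1314, 1270, 2750 and 2375 CPM in SD 6, 12, 24 and 48 h, at 1596, 997, 1795, 2530 and 2019 CPM in SASD 6, 12, 24, 48 and 120 h, and at 1173 CPM in Con. B cell, T cell, NK and platelet markers were detected in full in every library. Of 9 eosinophil and basophil markers, the granule protein gene Epx was at 0 counts in 6 of 10 libraries.

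The levels of the 5 genes were set against the summed markers of each cell type. As a ratio to the summed monocyte markers, Cybb spanned 1.45-fold over the 10 libraries, lowest in SD 24 h and highest in Con. The same span was 1.76-fold for Ncf1, 2.03-fold for Ncf4, 2.23-fold for Cyba and 2.55-fold for Rac2. The ratio to the summed NK markers spanned less than that to the monocyte markers for Cyba (1.68-fold), Ncf4 (1.97-fold) and Rac2 (1.7-fold) but more for Cybb (2.13-fold) and Ncf1 (2.0-fold). The ratio to the summed T cell markers also spanned less for Cyba (2.1-fold) and Rac2 (1.88-fold), as did that to B cell markers for Rac2 (2.23-fold). As a ratio to the summed mature neutrophil markers, Cybb spanned 5.32-fold, lowest in SD 48 h and highest in SASD 48 h, and the other 4 genes spanned 3.74-fold to 4.72-fold, the neutrophil sum itself running from 2381 CPM in SASD 120 h to 12490 CPM in SD 48 h. At 48 h the neutrophil markers were 4.38-fold higher in SD than in SASD, and the 5 genes had ratios of 0.823 to 1.43. At 24 h the monocyte markers were 1.53-fold higher in SD, the neutrophil markers 2.5-fold, with the ratios of Ncf1 and Ncf4 between these values and those of Cybb, Cyba and Rac2 below both. The part of these cell markers in the levels of the 5 genes was not tested.

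**Figure D5:**
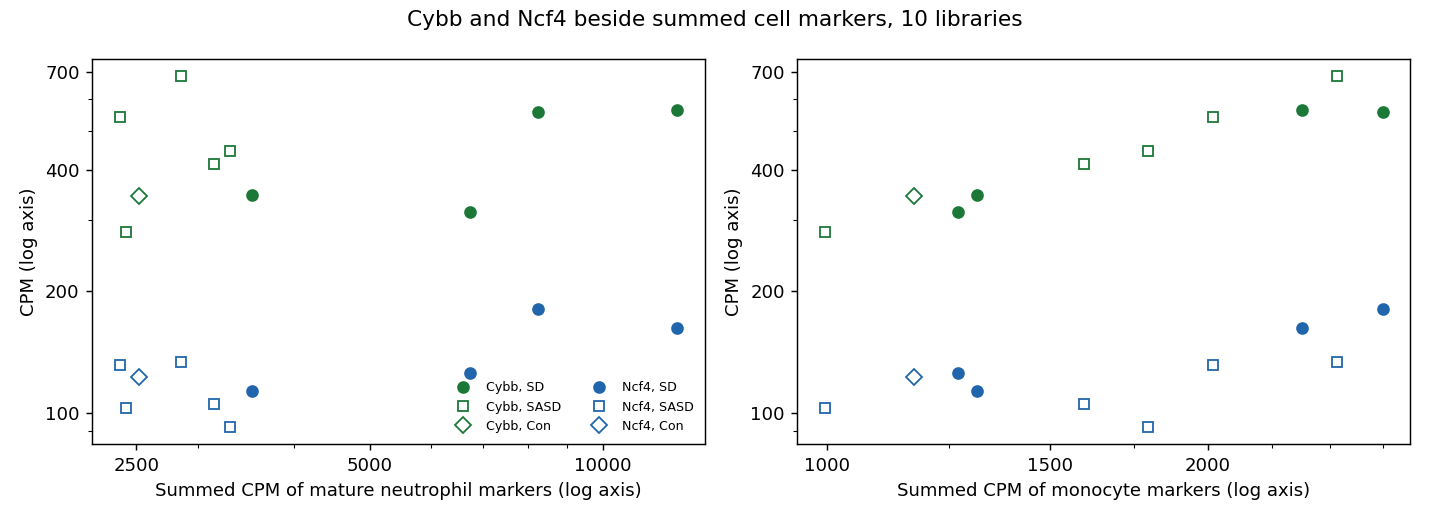
CPM of Cybb and Ncf4 (vertical axes, log) against the summed CPM of mature neutrophil markers (left, log) and monocyte markers (right, log), each point a library, filled circles SD, open squares SASD and open diamonds Con. Cybb is lowest (281 CPM) in SASD 12 h, where the monocyte sum is 997, and highest (685 CPM) in SASD 48 h, where it is 2530, while SD 48 h, with a neutrophil sum of 12490, has less Cybb than SASD 48 h. The highest monocyte sum (2750) is in SD 24 h, with Cybb at 558 CPM and the highest Ncf4 (181 CPM). Ncf4 is lowest (92.3 CPM) in SASD 24 h, where the monocyte sum is 1795.

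Likeness of profile was taken as the root-mean-square (RMS) difference of mean-centred log2 CPM over the 10 libraries, among 9620 genes at a mean count of 100 or more. The closest pair within the complex was Ncf1 and Ncf4, at 0.132, with 0.0624% of the genes closer to Ncf1 than Ncf4 was. Cyba and Rac2 stood at 0.135, with 1.78% of the genes closer to Cyba than Rac2 was. Cybb and Rac2 were the farthest apart at 0.398, with 29.7% closer to Cybb. For Cyba and Ncf1, at 0.241, 35.1% were closer to Cyba. Outside the 5, the nearest to Cybb were Gapt (0.126), an adaptor gene, Pak1 (0.144), a kinase that Rac GTPases activate, and Hk2 (0.148), a hexokinase. Nearest to Cyba were Spg21 (0.0745), Cuta (0.0834) and Sdhb (0.0851), a subunit of succinate dehydrogenase, and to Ncf1 P4ha1 (0.0951), Klhl9 (0.11) and Slk (0.111). Ncf4 was nearest to Aprt (0.0836), an adenine salvage enzyme, Irf1 (0.11), an interferon regulatory factor, and Ctns (0.111), the lysosomal cystine carrier. Rac2 was nearest to Rassf5 (0.066), Cdc42se1 (0.0679) and Osbpl9 (0.0699). On the 7 libraries other than Con and 48 h, 2 of these 15 genes remained, Gapt and Pak1 beside Cybb.

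Genes that assemble, switch or limit the oxidase were followed as a list. Of 27 genes of assembly and activation, all 27 were tested and 0 passed in any of the 4 edgeR fits. Of all genes, 0.0% passed in SD against SASD, 0.124% in the SD trend, 0.0% in the SASD trend and 0.41% in the difference of trends. In SD against SASD 14 of the 27 log2 ratios were above 0, with a median of 0.00, beside 49.2% of all genes above 0. Cybc1, the chaperone through which the Cybb and Cyba core matures, had a log2 ratio of SD over SASD of 0.14 ± 0.12 (edgeR adjusted p = 0.805). Nrros, a brake that lowers Cybb protein, had 0.28 ± 0.13 (0.635), and Hvcn1, the proton channel that carries charge out during the burst, had -0.24 ± 0.12 (0.685). Hvcn1 stood at 136, 113, 104 and 125 CPM in SD 6, 12, 24 and 48 h, at 125, 130, 150, 162 and 155 CPM in SASD 6, 12, 24, 48 and 120 h, and at 173 CPM in Con. It was lower in SD than in SASD at 12, 24 and 48 h, the reverse of Cyba, Ncf4 and Rac2. Summed B cell markers stood at 5324, 4578, 4507 and 4114 CPM in SD 6, 12, 24 and 48 h. In SASD 6, 12, 24 and 48 h these markers stood at 5278, 4843, 5942 and 5717 CPM. Their part in the Hvcn1 values was not tested.

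The exchange factors for Rac, Vav1, Prex1 and Dock2, stood at 0.17 ± 0.09, 0.14 ± 0.10 and -0.11 ± 0.11 in the same fit (log2, SE). The Rac inhibitor gene Arhgdib had -0.07 ± 0.13 and the small GTPase gene Rap1a -0.05 ± 0.09. Of the kinases that phosphorylate Ncf1, Prkcb had -0.32 ± 0.12 and Prkcd 0.07 ± 0.12. Rac1, the ubiquitous relative of Rac2, had -0.15 ± 0.18. Its ratio of SD over SASD was 0.604 (0.582 to 0.628) at 24 h and 1.31 (1.27 to 1.35) at 48 h, so that it did not follow Rac2. Platelet markers summed to 4580 CPM in SD 24 h against 11540 CPM in SASD 24 h, and to 3367 CPM in SD 48 h against 1836 CPM in SASD 48 h. Red cell markers summed to 66230 CPM in SD 24 h against 98840 CPM in SASD 24 h, and at 48 h to 3410 against 2695 CPM. The part of platelets or red cells in the Rac1 values was not tested. The edgeR adjusted p of these 8 genes was 0.573 to 0.917.

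Of 15 transcription factor genes of phagocytes, 13 were tested in SD against SASD and 0 passed, with a median log2 ratio of 0.11 and 8 above 0. Of all genes tested there, 0.0% passed and 49.2% were above 0. Spi1, which encodes PU.1, a main activator of phagocyte genes, had 0.74 ± 0.18 (edgeR adjusted p = 0.339). It stood at 197, 345, 381.5 and 269 CPM in SD 6, 12, 24 and 48 h, at 196, 153, 195, 155 and 216 CPM in SASD 6, 12, 24, 48 and 120 h, and at 115 CPM in Con. The interval of SD over SASD held 1 at 6 h (ratio 1.005, 0.945 to 1.07) and lay above it at 12 h (2.25, 2.12 to 2.40), a time at which the 5 subunit genes had ratios of 1.12 to 1.22. At 24 h the Spi1 ratio was 1.96 (1.835 to 2.085), where the 5 genes had 1.25 (Cybb) to 1.96 (Ncf4). At 48 h it was 1.74 (1.666 to 1.816), where they had 0.823 (Cybb) to 1.43 (Rac2). Cebpe, a regulator of granulocyte maturation, had 0.92 ± 0.37 (0.588) and was low, at 0.952 to 5.57 CPM in SD, 1.25 to 1.71 CPM in SASD and 0.848 CPM in Con. Irf8, a monocyte and dendritic cell regulator, had -0.10 ± 0.10 (0.828).

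Of 13 genes that handle superoxide and peroxide, 0 passed in SD against SASD, with a median log2 ratio of 0.08 and 8 above 0. Among all genes tested, 0.0% passed and 49.2% were above 0. Sod2, the mitochondrial superoxide dismutase, had 0.14 ± 0.10 (edgeR adjusted p = 0.775). Cat, catalase, had -0.29 ± 0.21 (0.767) and followed the haemoglobin sets, at 214 CPM in SD 48 h, 173 CPM in SASD 48 h and 245 CPM in Con, and at 340 to 1069 CPM in the other 7 libraries. Of 9 genes of other NOX and DUOX oxidases, 0 reached the minimum mean count of 10 in SD against SASD, 1 did in the SD trend and 2 in the SASD trend. None (0) was called, beside 0.124% of all genes in the SD trend and 0.0% in the SASD trend.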

How the data were processed

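Blood RNA libraries were made with an Illumina Truseq v2 kit, per the labels' protocols. The submitters' processing notes name mm10, Trimmomatic 0.39 and STAR 2.7.9a. The deposited values were raw counts of read pairs over exons, made by the authors with featureCounts 2.0.3 and no strand setting, per the file headers. GENCODE M21 gave a symbol to 32158 of 32285 gene identifiers.

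Genes averaging 10 counts or more in a fit's libraries were tested with edgeR 4.0.16 (R 4.3.3), TMM factors, the quasi-likelihood test and Benjamini-Hochberg adjustment over all genes at 0.05. SD against SASD used 8 libraries, blocked by time, which left 3 residual degrees of freedom. The trends had 3, 4 and 6 residual degrees of freedom for SD, SASD and their difference. Each p-value reflects only how pooled libraries and times varied, which may be partly technical. The fits were tested on simulated data with known changes, where the trend fits found few of the small ones and missed part of the large ones. A trend that was not called therefore does not show a level gene. The same holds for a gene not called in SD against SASD. There the mature neutrophil marker S100a8 was not called at a log2 ratio of 1.78 ± 0.30 (edgeR adjusted p = 0.31). Standard errors were derived from each log2 estimate and its F statistic. Single libraries were compared by ratios of TMM-scaled CPM. Profiles and 2-fold counts used log2 CPM with a prior count of 2, and the 2-fold counts took genes averaging 25 counts or more in the pair. Alternatives used DESeq2 1.42.0 and limma 3.58.1 (voom), and exact tests used Python 3.11.15 with scipy 1.17.1.

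The 5 genes, the marker and pathway lists and the further genes named were chosen with earlier results of these data known. Besides the 5 genes, 16 regulators were named whatever their values, and for each of the 5 the 3 genes of most similar profile. A further gene of the complex is not reported here.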

Additional observations from a re-analysis of the deposited data

How the results depend on the processing

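Of the 5 genes, edgeR called none (0) in any comparison with RLE or upper-quartile factors, TMM without haemoglobin genes, no count minimum, a mean count of at least 50, linear hours, no time block or any library or time left out. DESeq2 called 2 in the SD trend and 1 in the difference of trends, and the term for the haemoglobin-poor set gave 1 in the SD trend. Over all genes, SD against SASD had 0 calls, and 389 with no count minimum, 169 with DESeq2 and 0 to 237 with a time left out. The SD trend had 18, and 63 with no count minimum, 456 with DESeq2, 69 with limma-voom, 0 with linear hours, 796 with the set term and 0 to 511 with a library left out. The SASD trend had 0, and 0 to 1 with a library left out. The difference of trends had 58, and 88 with no count minimum, 272 with DESeq2, 102 with limma-voom, 6 with linear hours, 264 with the set term and 0 to 117 with a library left out.

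Values near 0 changed sign. The Cybb log2 ratio of SD over SASD was 0.0099 with limma-voom and -0.13 to 0.094 with a time left out, and its difference of trends was 0.0050 with limma-voom and -0.058 to 0.097 with a library left out. The Rac2 SASD slope was -0.0016 with a mean count of at least 50 and -0.0017 to 0.012 with a library left out. Over Con, total counts in place of TMM lowered log2 ratios by up to 0.49 (SASD 24 h). In SD 6 h this gave 0.901 for Cyba and 0.882 for Rac2, in SASD 6 h 0.976 for Cybb, 0.905 for Cyba and 0.844 for Rac2, in SASD 12 h 0.866 for Rac2, in SASD 24 h 0.924 for Cybb, and in SASD 120 h 0.988 for Ncf4 and 0.967 for Rac2. Genes above Con then numbered 0 in SD 6 h, SASD 6 h, SASD 12 h and SASD 24 h, 2 in SASD 120 h in place of 4, and 2 in SD 12 h in place of 3. Shares per coding length were 16.4% for Cyba, 9.54% for Ncf1, 6.00% for Ncf4 and 55.4% for Rac2, an alternative chosen after seeing the data. Of the 15 genes of most similar profile, 8 remained at a mean count of at least 500 and 2 on the 7 libraries. For SD over SASD at 24 h, total counts gave 2.10 for Ncf1 and 2.28 for Ncf4. The cause was not tested. Coding lengths from RefSeq proteins were not run. SD and SASD were matched by time only. By replicate, no paired analysis was possible because every group had a single library and the labels give no replicate numbers.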
